A study of Mus musculus with 6 samples.

Results

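The type IV collagen chains are the 6 genes Col4a1 to Col4a6, chosen by name from the NCBI Gene identifiers of the deposited table. All 6 were found among its 27179 features, and all 6 were among the 13946 genes tested, those with a mean of at least 10 normalised counts. RNA was sequenced from whole glomeruli, the filtering units of the kidney. They were isolated by perfusion with magnetic beads from male C57BL/6 mixed mice at 9 weeks of age. The 3 KO mice carried floxed Parva (Parva-fl/fl) and a Cre transgene driven in podocytes. The 3 WT mice (Parva-fl/fl) carried the same floxed alleles without the transgene, so WT names mice without Cre rather than mice with unmodified Parva. The labels describe the mice of both groups, in 1 shared text, as having mild proteinuria. Parva encodes alpha-parvin, a partner of integrin-linked kinase where cells attach to matrix. The question was which transcripts differ in whole glomeruli when Parva is deleted in podocytes.

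Type IV collagen is the sheet-forming collagen of basement membranes. Its chains wind into triple helices of fixed composition, which join end to end through their C-terminal domains into a network. Col4a1 and Col4a2 form the network found in nearly all basement membranes and in the mesangial matrix, and also in the immature glomerular basement membrane. Col4a3, Col4a4 and Col4a5 form the network of the mature glomerular basement membrane, and podocytes are its source. Loss of any of these 3 chains causes Alport syndrome. Col4a5 also joins Col4a6 in the basement membrane of Bowman's capsule and in smooth muscle.

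None of the 6 chains passed the test between genotypes. The ratio of Col4a3, Col4a4 and Col4a5 to Col4a1 and Col4a2 was higher in every KO library than in every WT library, but it carries no test. For comparison, log2 ratios did not overlap between the groups for 43.9% of all pairs of genes tested. Values of a group are listed in the order of its replicate numbers. Parva itself read 6585, 7520 and 7890 normalised counts in WT against 2288, 2338 and 1942 in KO and was thus lower in every library labelled KO. Its log2 fold change was -1.74 (limma adjusted p = 0.0106). Per kilobase of coding sequence, the summed level of Col4a3, Col4a4 and Col4a5 was 1.36 ± 0.0279 times that of Col4a1 and Col4a2 in WT and 1.85 ± 0.281 times in KO (SD, n = 3). Relative to 20 podocyte markers, the mean log2 level of Col4a3, Col4a4 and Col4a5 was 0.76 higher in KO, where the median of all genes was 0.52 higher on that scale. Normalised counts are reads per gene divided by a size factor per library, and whole reads recovered from them came to 11886828 to 20552984 per library. The chains other than Col4a6 rested on 2192 to 16613 reads per library and Col4a6 on 141 to 305.

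The chain genes lie in head-to-head pairs, in which the partners start near each other and are read in opposite directions. Coordinates are those of mm10 (GENCODE M21). Col4a1 (NCBI Gene 12826) lies at chr8:11198423-11312826 on the minus strand and Col4a2 (12827) at chr8:11312805-11449287 on the plus strand, so their annotated starts overlap by 22 bases. Col4a4 (12829) lies at chr1:82448423-82586849 on the minus strand and Col4a3 (12828) at chr1:82586921-82722059 on the plus strand, with 71 bases between the starts. Col4a6 (94216) lies at chrX:141165403-141474076 on the minus strand and Col4a5 (12830) at chrX:141475385-141689234 on the plus strand, with 1308 bases between them. The strand setting of the read counting is not given in the sources used here. Reads from the overlap of Col4a1 and Col4a2 therefore cannot be assigned to one of them. GENCODE also places transcripts on the opposite strand within the spans of Col4a1, Col4a2 and Col4a3. It places processed pseudogenes within those of Col4a5 and Col4a6. Apart from Col4a1 and Col4a2 themselves, none of these was found by name in the deposited table. Whether they overlap exons of the chains was not examined.

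The promoter stretches of 2 pairs are shown because the partners of a pair share them or lie beside each other, and the levels of partners are compared next. They are RefSeq sequence of GRCm38.p6, written 5′ to 3′ on the strand of the gene named, and are clear of transcripts of the chains in GENCODE M21. Capitals mark matches, on either strand, to GGGCGG (the GC box), CCAAT (the CCAAT box), TATAAA (the TATA box) or TAATTA (a core bound by LIM-homeodomain factors such as LMX1B); the 1 match found overlaps no other. The first is the whole gap between Col4a4 and Col4a3 (chr1:82586850-82586920, minus strand), the second the bases from 250 to 50 before the RefSeq start of Col4a5, which lies 34 bases downstream of the GENCODE start (chrX:141475169-141475369, plus strand), and the last those from 250 to 20 before the Col4a6 start (chrX:141474096-141474326, minus strand).
Col4a4: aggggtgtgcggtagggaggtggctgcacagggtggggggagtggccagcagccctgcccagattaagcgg
Col4a5: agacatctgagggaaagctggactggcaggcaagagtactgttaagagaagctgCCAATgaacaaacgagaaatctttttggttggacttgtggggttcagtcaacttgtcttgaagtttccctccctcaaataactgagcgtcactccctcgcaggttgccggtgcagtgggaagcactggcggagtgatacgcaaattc
Col4a6: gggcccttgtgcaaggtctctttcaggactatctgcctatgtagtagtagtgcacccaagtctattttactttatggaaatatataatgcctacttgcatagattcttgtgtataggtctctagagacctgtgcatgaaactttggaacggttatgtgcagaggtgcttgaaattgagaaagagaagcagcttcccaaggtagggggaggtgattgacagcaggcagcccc
The gap between Col4a4 and Col4a3 held none of the 4 motifs, and in the same window of 32851 mouse promoters the shares with a match were 20.7% for the GC box, 13.3% for the CCAAT box, 4.41% for the TATA box and 1.01% for TAATTA. The Col4a5 stretch held 1 CCAAT match, as did 28.6% of promoters in the same window. It held no GC box, TATA box or TAATTA, which 24.8%, 9.18% and 4.2% of promoters held in that window. The Col4a6 stretch held none of the motifs. In its window the shares with a match were 30% for the GC box, 32.3% for the CCAAT box, 11.8% for the TATA box and 4.69% for TAATTA.

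Across the 6 libraries the partners of a pair varied together to different degrees. Pearson's r of their log2 levels was 0.95 for Col4a1 and Col4a2, 0.88 for Col4a5 and Col4a6 and 0.69 for Col4a3 and Col4a4. Between Col4a3 and Col4a5, which share a network and lie on different chromosomes, r was 0.86. Between Col4a1 and the 3 chains of the mature network r lay between -0.49 and 0.10. These values describe 6 libraries that share their scaling and the genotype groups.

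All KO libraries of Col4a1 lay below the WT libraries. It read 6737, 6999 and 8036 normalised counts in WT against 6513, 5074 and 6612 in KO. The groups did not overlap, but KO-1 and KO-3 lay close below WT-1, and KO-2 was the lowest. The means were 7257 ± 686 in WT and 6066 ± 861 in KO (SD, n = 3), with a fitted change of -0.26 on the log2 scale (SE 0.14; limma adjusted p = 0.205). The 95% interval of the change ran from 0.66-fold to 1.05-fold. Groups that did not overlap were found in 45.1% of all genes tested, and in 21.9% with all KO libraries lower, so the order of the Col4a1 libraries alone does not set it apart.

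Col4a2, the partner of Col4a1 in the same triple helix, read 4690, 4451 and 5311 in WT against 4537, 3826 and 4653 in KO. KO-2 was again lowest, and KO-1 and KO-3 lay within the WT range. The change on the log2 scale was -0.15 (SE 0.12; limma adjusted p = 0.381), with a 95% interval from 0.74-fold to 1.10-fold.

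Col4a3, the Goodpasture antigen, had the highest level of the 6 chains. Its normalised counts were 9712, 10053 and 12214 in WT against 14718, 10889 and 10913 in KO. KO-1 stood above every other library, and KO-2 and KO-3 lay within the WT range. The change on the log2 scale was 0.18 (SE 0.17; limma adjusted p = 0.463), and it was 0.04 without KO-1. With WT-1 and KO-1 both left out, an alternative chosen after seeing the data, it was -0.02. With the mean of the proximal tubule markers as a covariate the change was 0.61, and no gene of all passed in that fit. The marker mean was 11.35 to 12.46 in WT and 12.87 to 13.42 in KO, so that fit cannot separate it well from genotype.

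Col4a4 read 3627, 2811 and 3414 in WT against 4817, 4166 and 3615 in KO. The groups overlapped by a little, because KO-3 lay just below WT-1. The means were 3284 ± 424 in WT and 4199 ± 602 in KO (SD, n = 3), with a fitted change of 0.35 on the log2 scale (SE 0.15; limma adjusted p = 0.116). Col4a4 was the 1 chain past an unadjusted threshold of 0.05 in limma, which 39.9% of the genes tested also passed. Its 95% interval ran from 1.01-fold to 1.62-fold.

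Col4a5, whose gene on the X chromosome is the one most often mutated in Alport syndrome, read 2381, 2260 and 2449 in WT against 3025, 2378 and 2621 in KO. KO-1 and KO-3 lay above the WT range and KO-2 within it. The change on the log2 scale was 0.17 (SE 0.11; limma adjusted p = 0.275), with a 95% interval from 0.94-fold to 1.35-fold, and it was 0.08 without KO-1.

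Col4a6 was the least abundant chain and read 153, 184 and 196 in WT against 270, 182 and 219 in KO. KO-2 lay within the WT range and the other KO libraries above it. The change on the log2 scale was 0.32 (SE 0.18; limma adjusted p = 0.222), with a 95% interval from 0.93-fold to 1.67-fold, and it was 0.17 without KO-1. In all, 0 of 6 chains passed an adjusted p of 0.05 in limma, edgeR or DESeq2, where 22.1% of all genes tested passed in limma. With the deposited scaling, a change of 2-fold in either direction lay outside the 95% interval of every chain. Col4a1 and Col4a2 then had lower and the other chains higher KO means, but with libraries scaled to equal podocyte markers Col4a1 and Col4a2 were higher in KO too (log2 fold changes 0.26 and 0.37).

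**Figure D1:**
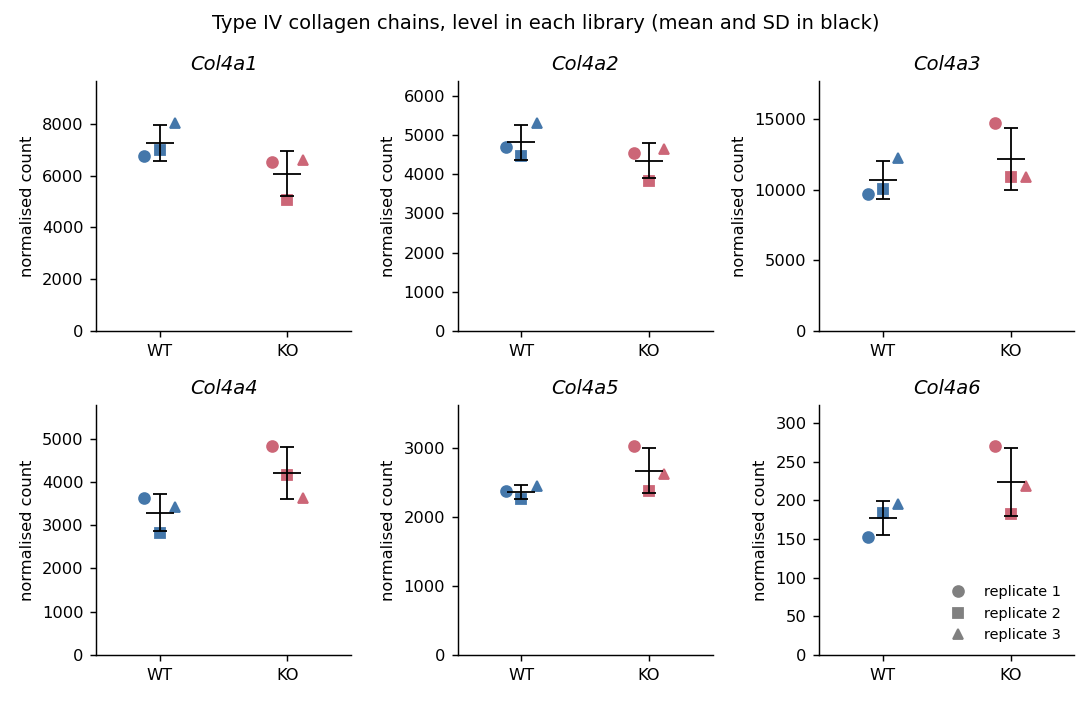
Normalised counts (vertical axes, from 0) of each type IV collagen chain in the 3 WT and the 3 KO libraries; symbols are libraries, black bars the mean and SD. The KO points of Col4a1 lie below all WT points, and KO-1 is the highest library for Col4a3, Col4a4, Col4a5 and Col4a6.

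The coding sequences of the chains are of nearly equal length, from 5007 bases in Col4a1 and Col4a3 to 5121 in Col4a2, so levels were compared per kilobase of coding sequence. In WT the level per kilobase was 2129 ± 271 for Col4a3, 1449 ± 137 for Col4a1, 941 ± 86.7 for Col4a2, 651 ± 83.9 for Col4a4, 466 ± 18.8 for Col4a5 and 35.0 ± 4.34 for Col4a6 (SD, n = 3). This order held in each of the WT libraries and in KO-3. In KO-1 and KO-2 Col4a4 stood above Col4a2. In KO the levels of Col4a2 (847 ± 87.4) and Col4a4 (832 ± 119) did not differ beyond their spread (SD, n = 3). Divided by the length of the annotated transcript, which is longest for Col4a4, Col4a5 stood above Col4a4 in each WT library and in KO-3.

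Within a network the chains were unequal in level. Col4a1 was 1.54 ± 0.0697 times as abundant per kilobase as Col4a2 in WT and 1.43 ± 0.0609 times in KO (SD, n = 3). Col4a3 was 3.30 ± 0.524 times as abundant as Col4a4 in WT and 2.92 ± 0.247 times in KO, and the groups overlapped. Col4a3 was 4.13, 4.51 and 5.05 times as abundant as Col4a5 in WT and 4.93, 4.64 and 4.22 times in KO, again with overlap. Within the mature network Col4a3 was the most abundant transcript in every library.

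Between the networks the ratio was higher in every KO library than in every WT library, a description that carries no test. The ratio of the summed per-kilobase levels, Col4a3 to Col4a5 over Col4a1 and Col4a2, was 1.38, 1.33 and 1.36 in WT against 2.05, 1.97 and 1.53 in KO. The WT libraries lay within a narrow range, and every KO library lay above it, KO-3 the closest. As a difference of mean log2 levels between the networks, the values were -0.36, -0.48 and -0.48 in WT against 0.14, 0.11 and -0.24 in KO, a KO minus WT difference of 0.44. A ratio of genes within a library does not depend on how the libraries are scaled.

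The same held for single genes. All 6 ratios of a mature chain to Col4a1 or Col4a2 were above the WT range in all KO libraries, with KO minus WT differences of 0.32 (Col4a5 over Col4a2) to 0.62 (Col4a4 over Col4a1) on the log2 scale. These 6 ratios share 5 genes and are not independent of each other. Among all pairs of genes tested, 43.9% had log2 ratios that did not overlap between the groups. Within a network, 1 of 4 ratios did not overlap, Col4a2 over Col4a1, and there KO-1 and WT-1 differed by less than 0.01 (both -0.52). The ratios of Col4a6 to Col4a1 and to Col4a2 did not overlap either, while those of Col4a6 to the 3 mature chains did. No p is given for these ratios, since the chains were chosen with results of these data known.

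**Figure D2:**
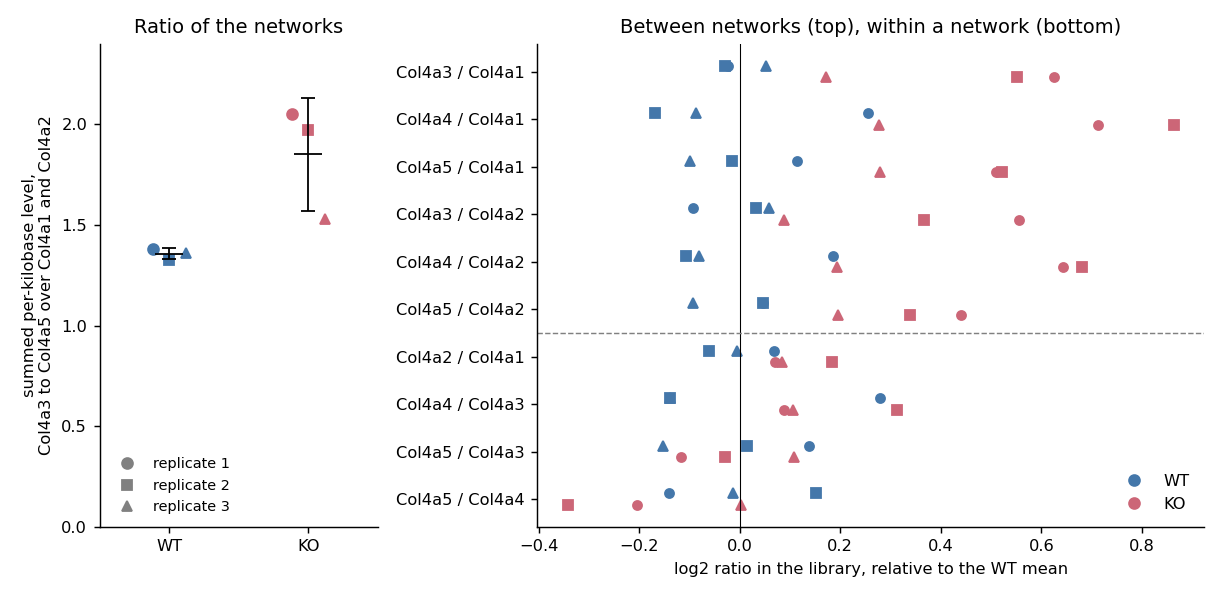
Left, ratio of the summed per-kilobase levels of Col4a3, Col4a4 and Col4a5 to those of Col4a1 and Col4a2 in each library, with mean and SD in black. Right, log2 ratio of single chains in each library relative to the WT mean; above the dashed line all KO points lie to the right of the WT points, while below it the groups mix except for Col4a2 over Col4a1.

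Of the summed per-kilobase level of the 6 chains, Col4a3 made up 35.8% to 38.8% in WT and 38.3% to 43.7% in KO. Col4a1 made up 24.8% to 26.3% in WT and 19.2% to 23.2% in KO, without overlap. The share of Col4a2 was 16.6% ± 0.278 in WT and 14.4% ± 1.43 in KO (SD, n = 3), also without overlap. Col4a5 took 7.69% to 8.66% in WT and 8.86% to 9.09% in KO, without overlap, although its level overlapped. The shares of a library are parts of the same sum and are not independent of each other. For comparison, levels did not overlap in 45.1% of all genes tested, and log2 ratios in 43.9% of all pairs of genes. The share of Col4a4 overlapped, at 10.5% to 13.3% in WT and 12.6% to 15.7% in KO. The sum itself was 5671 ± 530 in WT and 5894 ± 754 in KO (SD, n = 3), a difference smaller than the spread.

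**Figure D3:**
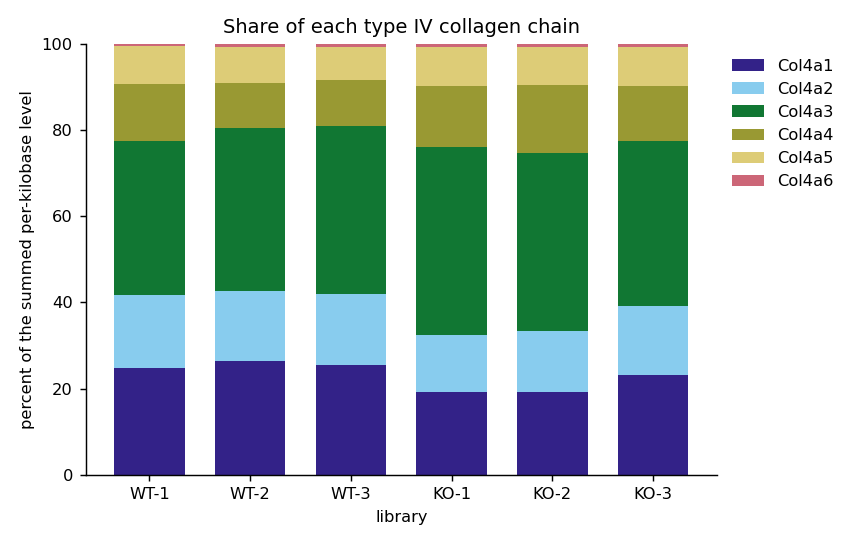
Share of each chain in the summed per-kilobase level of the 6 chains (stacked to 100 percent) in each library. Col4a1 and Col4a2 together take the lower part of each bar, which is shorter in the 3 KO libraries.

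By the mean over each list, markers of podocytes, endothelial and mesangial cells were lower in every KO library than in WT. All 20 podocyte markers were tested, none was at 0 in any library, and 9 fell, none rose and 11 did not pass (median log2 fold change -0.56, against -0.01 over all genes tested; 8.58% of all genes fell). Their mean log2 level was 12.38 to 12.68 in WT and 11.81 to 12.31 in KO. Of 16 glomerular endothelial markers 13 fell and none rose (median -0.64), with mean levels of 11.83 to 12.10 in WT and 11.18 to 11.52 in KO. Of 12 mesangial markers 8 fell and none rose (median -0.68), with mean levels of 11.54 to 11.87 in WT and 10.91 to 11.15 in KO. Of 16 proximal tubule markers 15 rose (13.5% of all genes rose), with mean levels of 11.35 to 12.46 in WT and 12.87 to 13.42 in KO. Markers of the distal tubule and collecting duct numbered 12, of which 3 rose and none fell, and of 7 parietal markers tested 4 rose and 1 fell. In whole glomeruli, fewer cells of a type and less RNA per cell cannot be told apart, and the part of these markers in the chain levels was not tested. Calls across all genes depended on single libraries: at most 4 genes of all passed without WT-2, WT-3, KO-2 or KO-3.

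Against these markers the chains stood higher in KO. The mean log2 level of Col4a3, Col4a4 and Col4a5 minus that of the podocyte markers was -0.29, -0.63 and -0.49 in WT against 0.24, 0.26 and 0.38 in KO. All WT values were below 0 and all KO values above it, and the difference was 0.76. By chain it was 0.71 for Col4a3, 0.88 for Col4a4 and 0.70 for Col4a5, each without overlap. Of all genes tested, 52.7% were likewise higher in every KO library relative to the podocyte markers, and 54.2% did not overlap in either direction, so the lack of overlap does not set the chains apart. Against single podocyte genes it was 0.56 for Nphs1 (nephrin, of the slit diaphragm), 0.82 for Podxl (the surface sialomucin podocalyxin) and 0.89 for Synpo (the actin-binding synaptopodin). These 3 were picked after the list values were seen. Scaled to equal podocyte markers, Col4a3, Col4a4, Col4a5 and Col4a6 passed the test (limma adjusted p = 0.0333, 0.0155, 0.023 and 0.0154, with n = 3 per group). That scaling moved the median of all genes to 0.52, and 4701 genes then passed. Of the 20 podocyte markers, 19 had a lower log2 fold change than Col4a3 and Col4a5, and all 20 a lower one than Col4a4. The exception was Cdkn1c (0.23). The other chains ranked much the same, above 17 markers for Col4a1, 19 for Col4a2 and 20 for Col4a6. With 19 markers below 0 and a median of all genes of -0.01, these ranks do not set the mature chains apart.

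Col4a1 and Col4a2 were also higher relative to the cells of the capillary tuft, a comparison added after the values were seen. Their mean log2 level minus that of the 28 endothelial and mesangial markers was 0.75, 0.44 and 0.70 in WT against 1.12, 1.04 and 1.09 in KO. The groups did not overlap, and the difference was 0.45. Relative to these markers 72.3% of all genes tested were higher in every KO library, and 73.1% did not overlap in either direction. With libraries scaled to these markers, all 6 chains passed as higher in KO, among 9050 genes called of which 9007 were higher, and the median of all genes was 0.65, above the 0.40 of Col4a1 and the 0.51 of Col4a2.

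**Figure D4:**
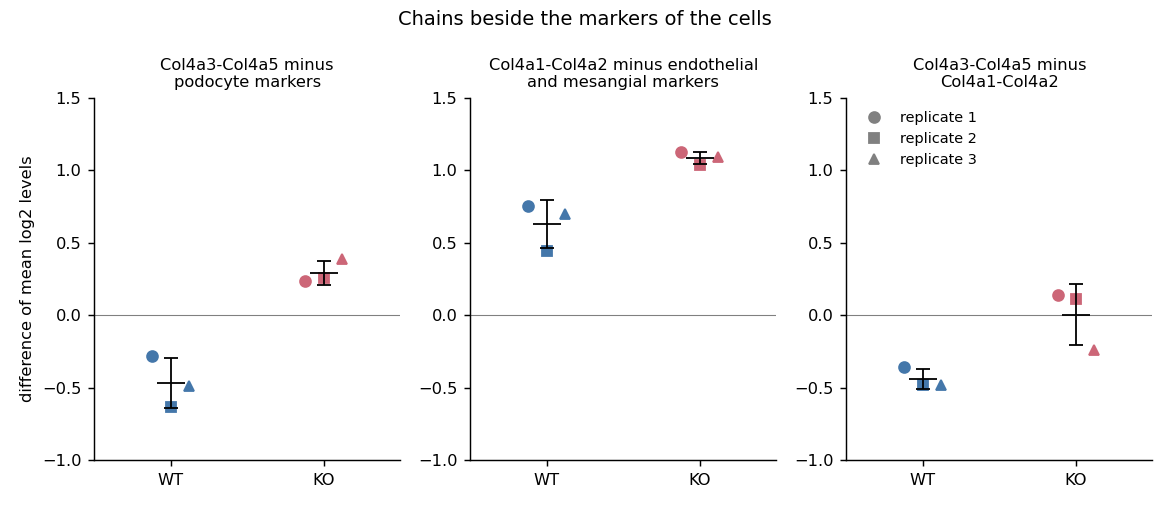
Difference of mean log2 levels in each library, with mean and SD in black: Col4a3 to Col4a5 minus podocyte markers (left), Col4a1 and Col4a2 minus endothelial and mesangial markers (middle) and Col4a3 to Col4a5 minus Col4a1 and Col4a2 (right). The KO libraries lie above the WT libraries in each panel.

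**Figure D5:**
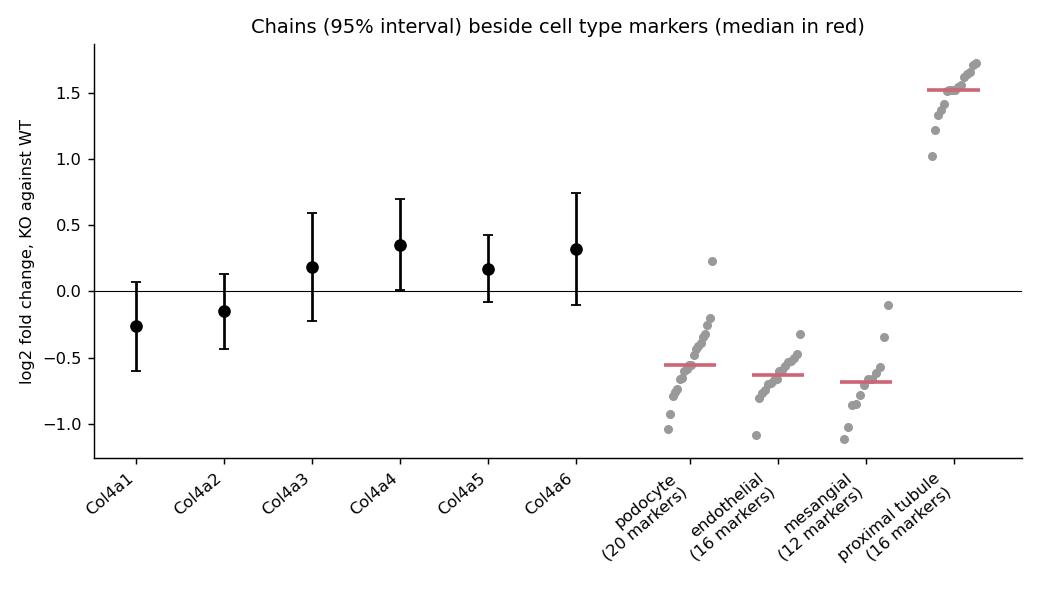
Log2 fold change of KO against WT (vertical axis) for the 6 chains with their 95% interval and for each marker of 4 cell types, with the median in red. The chains lie between -0.26 and 0.35, above the medians of the podocyte, endothelial and mesangial markers and below that of the proximal tubule markers.

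Of 30 genes that modify, fold and export collagen, 29 were tested, 1 rose, 2 fell and 26 did not pass (median log2 fold change -0.01). Of all genes tested 13.5% rose and 8.58% fell. Plod2, a lysyl hydroxylase that prepares collagen for cross-linking, read 2968, 3413 and 2960 in WT against 4896, 4349 and 5224 in KO. It rose by 0.63 on the log2 scale (SE 0.11; limma adjusted p = 0.0286), and all KO libraries were above all WT libraries. P3h3, of the prolyl 3-hydroxylase family, fell by 0.58 and Fkbp10, a prolyl isomerase that acts as a collagen chaperone, by 0.67 (limma adjusted p = 0.0286 for each). 4 others with known roles in basement membrane collagen did not pass. Pxdn, peroxidasin, forms the sulfilimine cross-links of the network and had a log2 fold change of -0.36 (limma adjusted p = 0.195). The rest were Loxl2, a lysyl oxidase of basement membranes (0.24; limma adjusted p = 0.588), Serpinh1, the collagen chaperone HSP47 (-0.21; limma adjusted p = 0.321), and Mia3, which loads collagen into transport carriers (0.09; limma adjusted p = 0.502). These 4 were picked after their values were seen. Mia2, also on the list and picked in the same way, passed in DESeq2 but not in limma or edgeR. It read 85, 17 and 18 in WT against 105, 144 and 104 in KO (log2 fold change 1.93; limma adjusted p = 0.053).

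Among receptors that bind collagen, the discoidin domain receptors moved in opposite directions. Ddr1, an epithelial receptor tyrosine kinase activated by collagen, read 1640, 1320 and 1300 in WT against 2235, 2169 and 2274 in KO. It rose by 0.66 on the log2 scale (SE 0.11; limma adjusted p = 0.0286). Ddr2, its relative in mesenchymal cells, read 261, 260 and 379 in WT against 171, 168 and 176 in KO. It fell in the test, by a change of -0.78 on the log2 scale (SE 0.17; limma adjusted p = 0.0294). Whether Ddr1 and Ddr2 follow the changes of the cell type markers was not tested. With 2 of 10 tested, receptors passed about as often as all genes (22.1%). The other 8 did not pass, among them Itga1 (0.27; limma adjusted p = 0.0895) and Itgb1 (-0.20; limma adjusted p = 0.331), whose products pair as a collagen-binding integrin. None of the calls among processing and receptor genes was kept without WT-2, WT-3, KO-2 or KO-3. Without KO-1 3 processing genes and 1 receptor passed, and without WT-1 7 and 3.

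Of 15 other components of the basement membrane, 4 fell, 1 rose and 10 did not pass (median log2 fold change -0.20), where 8.58% of all genes fell and 13.5% rose. Lama5, the laminin alpha chain of the mature glomerular basement membrane, fell by 0.42 (limma adjusted p = 0.0381), from 2905 ± 263 to 2177 ± 201 (SD, n = 3). Lama1, a laminin alpha chain of immature membranes, rose by 1.64 on the log2 scale (limma adjusted p = 0.0286), from 38.5 ± 14.5 to 117 ± 9.10 (SD, n = 3). The other laminin chains of the list did not pass. They include Lamb2 (-0.23; limma adjusted p = 0.193) and Lamb1 (0.17; limma adjusted p = 0.152), picked after their values were seen. Among WT libraries, Lama1 and the proximal tubule markers both peaked in WT-1 (54 normalised counts and a mean log2 level of 12.46). The median log2 fold change of those markers was 1.52, and their part in the Lama1 level was not tested. Nid1, which links laminin to type IV collagen, fell by 0.48, Col15a1 by 0.64 and Tinagl1, a matrix protein of the capillary tuft, by 0.77 (limma adjusted p = 0.0408, 0.0286 and 0.0286, with n = 3 per group). Of 9 proteases and inhibitors that act on type IV collagen, 7 were tested and 0 passed in limma or edgeR, 1 (Mmp14) passed in DESeq2 and 2 were below an unadjusted 0.05 in limma, where 22.1% of all genes passed and 39.9% were below an unadjusted 0.05. The latter were Mmp14 (log2 fold change -0.49; limma adjusted p = 0.0538) and Timp2 (-0.34; limma adjusted p = 0.114).

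A list of 15 possible regulators holds transcription factors of podocytes and stroma and genes of TGF-beta signalling. Of these 9 fell, 1 rose and 5 did not pass (median log2 fold change -0.53), where 8.58% of all genes fell and 13.5% rose. Wt1, Foxc2, Zeb1 and Foxc1, all transcription factors, fell by 0.92, 0.85, 0.63 and 0.67, and Tgfbr1, a TGF-beta receptor, rose by 0.42 (limma adjusted p between 0.0286 and 0.0333). Wt1, Tcf21 and Lmx1b are among the regulators that are also in the podocyte list, so these lists are not separate evidence. The counts for partners and regulators, like those for the markers, rest on WT-2, WT-3, KO-2 and KO-3: without any of these at most 4 genes of all passed. Lmx1b, the LIM-homeodomain factor that regulates Col4a3 and Col4a4 in mouse podocytes, read 146, 116 and 146 in WT against 119, 87 and 74 in KO. WT-2 lay below KO-1, and the log2 fold change of -0.56 did not pass (limma adjusted p = 0.0966).

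The genes most like each chain were taken by Pearson's r of log2 levels over the 6 libraries, among 11401 named genes with a mean of at least 50. For Col4a1 they were Nrde2, Filip1l and Mcm4, a subunit of the replication helicase (r = 0.99 for each). For Col4a2 they were Mapk8ip3, Arhgef16 and Map3k1 (0.97 each). Col4a3 went with Setdb2, Cyld (a deubiquitinase) and Traf3 (0.99 each), and Col4a4 with Mob1b, Ppat (an enzyme of purine synthesis) and Ap5s1 (0.98 each). For Col4a5 they were Mark1, Cep97 and Tbc1d24 (0.98, 0.96 and 0.94). Col4a6 went with Epha2, an ephrin receptor, at r = 0.996, with Foxs1 at 0.98 and with Acsl4 at 0.96. Epha2 read 386, 460 and 495 in WT against 637, 448 and 524 in KO, which puts the libraries in the same order as Col4a6. None of these genes passed the test (limma adjusted p of 0.0821 and above), and r describes 6 libraries only.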

How the data were processed

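The deposited values are normalised counts, a signal in which the authors scaled the reads of each gene by 1 factor for each library (from the column headers and the values). The submitters' processing notes name the build mm10 and 5 tools: DESeq2 (2.11.40.6), featureCounts (1.6.4), the aligner HISAT2 (2.1), the trimmer cutadapt (1.16.5) and bcl2fastq (2.19). How strand and multi-mapping reads were handled, and which annotation release was used, is not given in the sources used here. Within each library the values are multiples of 1 step, so whole reads could be recovered by division (100% whole within 0.01). The series' design text gives 3 mice per group. Libraries of a group differed by more than sampling noise, with a chi-square of 23.4 per degree of freedom or more.

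Genes with a mean of 10 or above were fitted with limma 3.58.1 (R 4.3.3, variance trend) on log2(normalised count + 1) with genotype as the only term. P-values were adjusted over all genes tested by the Benjamini-Hochberg method (two-sided, threshold 0.05). This scale understates the change of low genes. RefSeq gene tables named 25275 features and left 1904 unnamed. Members and lists were chosen with earlier results of these data known. The genes named are the chains, up to 5 members of each list with the smallest adjusted p past the threshold, and the 3 genes most like each chain among those with a mean of at least 50. Genes named beyond this rule are said to be so, and some genes under it are not reported here. Recovered reads were also tested with DESeq2 1.42.0 and with edgeR 4.0.16. The fits were tested on simulated counts. Ratios and differences per library between chains, networks and markers carry no test. The fits on libraries scaled to equal markers are alternatives of the test across all genes.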

Additional observations from a re-analysis of the deposited data

How the results depend on the processing

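The main fit called 3085 genes, 0 chains, 3 processing genes and 2 receptors. Leaving out 1 library gave 0 to 4294 genes, 0 chains, 0 to 7 processing genes and 0 to 3 receptors. Without WT-1 4294 genes passed, without KO-1 2062, and without WT-2, WT-3, KO-2 or KO-3 1, 0, 4 and 3. Nearly all calls at the adjusted threshold were thus lost when any of these 4 libraries was left out. In the same order, 3939, 4048, 4021 and 4924 genes were still below an unadjusted 0.05 in limma, against 5563 in the main fit. Over all fits with 1 library left out, the log2 fold change ran from -0.33 to -0.14 for Col4a1 and -0.21 to -0.06 for Col4a2. The ranges were 0.04 to 0.29 for Col4a3, 0.25 to 0.46 for Col4a4, 0.08 to 0.25 for Col4a5 and 0.17 to 0.46 for Col4a6. The network difference of 0.44 ran from 0.38 to 0.57 and that from podocyte markers of 0.76 from 0.68 to 0.85.

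With a replicate block 0 genes, 0 processing genes and 0 receptors passed (4284 genes were below an unadjusted 0.05 in limma). The numbers are not shown to pair the libraries, since deviations of same-numbered libraries correlated at -0.23, -0.19 and -0.01. Without the variance trend 1 gene, 0 processing genes and 0 receptors passed, and without a filter 27, 0 and 0. With a covariate for the mean of the proximal tubule markers 0 genes, 0 processing genes and 0 receptors passed (367 genes were below an unadjusted 0.05), and Col4a1 changed sign to 0.01 (0.0125). Col4a2 then stood at -0.03, Col4a3 at 0.61, Col4a4 at 0.25, Col4a5 at 0.30 and Col4a6 at 0.89, and no chain passed. The marker mean did not overlap between WT and KO, so the covariate and genotype are not well separated in this fit. edgeR called 2841 genes and DESeq2 3810, with 0 chains in each.

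Scaled to equal podocyte markers, 4701 genes, 4 chains and 7 processing genes passed. Col4a1 and Col4a2 then changed sign, to 0.26 and 0.37, and Col4a3 to Col4a6 stood at 0.71, 0.88, 0.70 and 0.84. Scaling to endothelial and mesangial markers, chosen after seeing the data, gave 9050 genes, 6 chains, 23 processing genes and 4 receptors. The chains from Col4a1 to Col4a6 stood at 0.40, 0.51, 0.85, 1.02, 0.83 and 0.98. These scalings moved the median of all genes to 0.52 and 0.65 and the upper quartile scaling to -0.06. Without WT-1 and KO-1, also chosen later, Col4a3 changed sign to -0.02 (-0.0236) and 7 processing genes passed. The cause of these changes was not tested. Upper quartile scaling called 1730 genes as higher and 1523 as lower, against 1889 and 1196.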
